A study of Mus musculus with 29 samples.

Results

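H3K4me1 was mapped by CUT&RUN in sorted adult mouse microglia with and without the transcription factor IRF8. The regions described here are those listed in the knockout (KO) and not in the wild type (WT). They were chosen from the deposited H3K4me1 region lists alone. The regions of the 2 KO libraries were merged where they shared at least 1 bp, and merged regions with a region in both libraries were kept as consensus regions. A consensus region with no overlapping region in either of the 2 WT libraries was called knockout-only. This gave 14754 knockout-only regions of 62025 KO consensus regions, or 23.8%. The remaining 47271 KO consensus regions, which overlapped a WT region, serve as the comparison and are called the other KO regions. By the same rule in the opposite direction, 6453 of 49737 WT consensus regions (13.0%) were wild-type-only. The class was defined by H3K4me1, so its size, widths and strengths are a description and carry no test.

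In CUT&RUN an antibody guides protein A fused to micrococcal nuclease to its target, and the DNA cut loose there is sequenced. Microglia are the resident macrophages of the brain. The WT and IRF8KO groups were microglia sorted from 3-month-old female mice of the WT and IRF8KO strains, with 2 libraries per genotype for H3K4me1, H3K27ac and PU.1. IRF8 itself was mapped through an antibody to GFP in mice of the IRF8-EGFP strain: 4 libraries of microglia at postnatal day 9 (P9), 3 at day 14 (P14), 3 of adult microglia and 3 of peritoneal macrophages. The labels state the age of 3 months for the WT and IRF8KO brains, and for the adult IRF8 libraries give no more than the word adult. These IRF8 libraries all come from mice that have IRF8, and describe where it bound in its presence. Cells for the IRF8, PU.1 and IgG samples were fixed with 1% paraformaldehyde for 10 min. No fixation is recorded for H3K4me1 and H3K27ac. The sources used here do not say which allele the IRF8KO strain carries or whether replicates came from separate mice, so the spread between libraries may be technical. The lists hold no expression data, and the knockout was not checked here. The KO H3K27ac libraries are 2 of 3, and the P9 libraries 4 of 7, that the labels mention.

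H3K4me1 marks enhancers, both active ones and those that are primed or poised. H3K27ac is found at active enhancers and promoters, so an H3K4me1 region that lacks it is commonly described as primed. PU.1 is the ETS-family factor that opens enhancers in macrophages and microglia, and IRF8 is its partner there, binding with it at composite ETS-IRF sites. Interferon response elements are also bound by IRF8. IRF8 is needed for normal development and gene expression of microglia.

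Of the 14754 knockout-only regions, 30 held a PU.1 consensus peak of the KO libraries. For 4 of them the stretch of the strongest KO PU.1 peak around its summit is shown, since H3K4me1 and PU.1 were both listed in the knockout in these regions. The first 3 are among the 6 such regions of highest H3K4me1 rank. The fourth was added after its values were seen, for its gene. Letters are from the + strand of GRCm38.p6, 5′ to 3′, and capitals mark matches on either strand to any of 7 motifs (ETS-IRF, interferon response, PU.1, AP-1, C/EBP, RUNX and MEF2). The Invs window (chr4:48419201-48419500) lies in an intron of Invs, which encodes the ciliary protein inversin, and the H2-K1 window (chr17:34005474-34005703) lies outside genes near H2-K1, a heavy chain of MHC class I. The Por window (chr5:135677362-135677661) lies in an intron of Por, which encodes cytochrome P450 oxidoreductase. The F13a1 window (chr13:37034654-37034953) lies in an intron of F13a1, the A subunit of coagulation factor XIII and a marker of border macrophages.
Invs: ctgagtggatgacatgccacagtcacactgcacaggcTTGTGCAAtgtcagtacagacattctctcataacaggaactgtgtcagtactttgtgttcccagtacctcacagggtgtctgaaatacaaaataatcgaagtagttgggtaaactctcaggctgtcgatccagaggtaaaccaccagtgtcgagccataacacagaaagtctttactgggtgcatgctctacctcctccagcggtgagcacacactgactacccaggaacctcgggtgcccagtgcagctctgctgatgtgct
H2-K1: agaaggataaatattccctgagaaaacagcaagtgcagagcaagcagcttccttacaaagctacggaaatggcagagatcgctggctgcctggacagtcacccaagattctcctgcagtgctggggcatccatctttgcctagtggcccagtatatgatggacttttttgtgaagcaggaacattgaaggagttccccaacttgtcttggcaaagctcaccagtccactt
Por: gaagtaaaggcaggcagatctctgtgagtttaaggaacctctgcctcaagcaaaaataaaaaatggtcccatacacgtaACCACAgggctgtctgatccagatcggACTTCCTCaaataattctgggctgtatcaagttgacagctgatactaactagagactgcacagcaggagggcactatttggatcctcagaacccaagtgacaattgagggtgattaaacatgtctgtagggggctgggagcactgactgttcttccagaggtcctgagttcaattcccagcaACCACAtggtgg
F13a1: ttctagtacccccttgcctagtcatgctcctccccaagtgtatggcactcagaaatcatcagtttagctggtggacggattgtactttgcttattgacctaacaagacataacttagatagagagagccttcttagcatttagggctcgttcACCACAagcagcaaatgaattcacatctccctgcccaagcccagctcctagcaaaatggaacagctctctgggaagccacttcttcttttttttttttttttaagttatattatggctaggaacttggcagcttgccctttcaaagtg
The Invs window holds 1 match, to the C/EBP motif, and the F13a1 window 1 match, to RUNX. The Por window holds 1 match to the PU.1 motif and 2 to RUNX, and 55.3% of its bases are repeat-masked. The H2-K1 window holds none of the 7 motifs. The PU.1 motif is therefore spelled out in 1 of these 4 windows. Around the KO PU.1 summits of all knockout-only regions with a summit inside, it was found in 5 of 29 windows of about the same length (17.2%), against 20.3% of 3810 such windows in the other KO regions.

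Knockout-only regions were weak and narrow members of the KO lists. Their median −log10 p, the authors' peak-caller value, was 2.16 in replicate 1 and 2.45 in replicate 2, against 3.27 and 3.91 for the other KO regions. The fold enrichment over the IgG control was 2.21 and 2.19 at the median, against 2.74 and 2.72. In both libraries the class sat lower in its list: the mean percentile of −log10 p over the 2 lists had a median of 43.3 for knockout-only regions and 74.7 for the others. A −log10 p of at least 3 was reached by 15.6% of knockout-only regions in replicate 1 and 30.0% in replicate 2, against 56.9% and 69.1% of the others. The median width was 2644 bp, against 4272 bp for the other KO regions and 2434 bp for wild-type-only regions. The widest, 19036 bp near Odf2, was far below the widest of the other KO regions, 187191 bp.

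**Figure D1:**
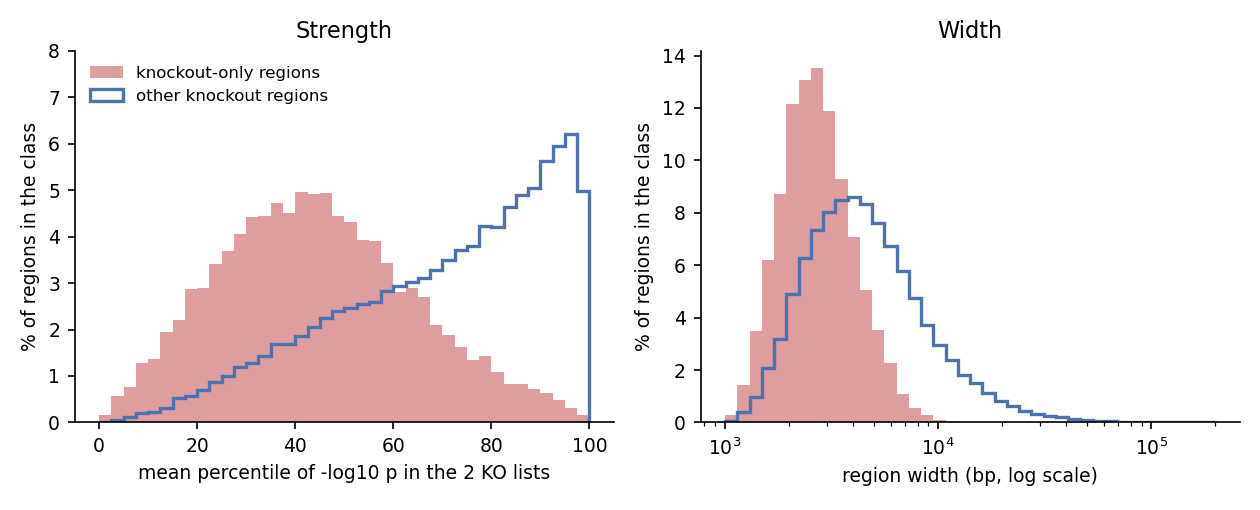
Distribution of H3K4me1 strength (left: mean percentile of −log10 p in the 2 KO lists) and region width (right: bp, log scale) in the 14754 knockout-only regions (filled) and the 47271 other KO regions (line), as percent of the regions of each class. The knockout-only distribution peaks in the middle of the KO lists, median 43.3, and at narrow widths, median 2644 bp, while the other regions crowd toward the top of the lists.

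The gap from a knockout-only region to the nearest WT H3K4me1 region had a median of 3436 bp. It was at most 1000 bp for 16.4% of the regions, at most 5000 bp for 63.0% and at most 10000 bp for 84.2%. Of all bases between WT regions 14.8%, 50.9% and 72.3% lay that near to one. From wild-type-only regions to KO regions the median gap was 3008 bp, and 84.1% were within 10000 bp. The 218 knockout-only regions within 100 bp of a WT region had a median width of 2774 bp and fold enrichments of 2.22 and 2.17. The 257 other KO regions covered by at most 100 bp of WT region were alike, with 2796 bp and 2.19 and 2.16. The values on the 2 sides of the rule's boundary thus differed little.

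The H3K4me1 lists differed in depth and length. KO replicate 2 had 23884530 fragments and 189351 regions, against 14119640 to 15840411 fragments and 104818 to 129859 regions in the other 3 H3K4me1 libraries. Taken alone, 56.0% of the regions of KO replicate 2 and 41.7% of those of KO replicate 1 had no WT counterpart, and the requirement for both libraries brought this to 23.8%. With all 4 lists cut to the 104818 strongest regions, 8202 consensus regions were knockout-only, 17.3% of the consensus of those lists. With only regions of −log10 p of at least 3 in all 4 lists the count was 5933, and the percentage was 24.1%. The fragments of the libraries could not be equalised from these lists, so the part of depth in the count was not tested.

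Knockout-only regions were less often near transcription start sites than the other KO regions, except in lists limited to strong regions. The centre was within 1 kb of a start site (GENCODE) for 1293 of 14754 regions, 8.76% (95% exact binomial interval 8.31 to 9.23), against 18.3% of the other KO regions and 5.44% of wild-type-only regions. A start site lay inside 11.8% of knockout-only and 34.6% of other KO regions. The median distance to the nearest start site was 11148 bp, against 6650 bp. Introns held the centre of 58.0% and exons that of 7.16%, and 34.9% lay outside genes, against 27.8% of the other KO regions and 52.3% of wild-type-only regions. With the other KO regions reweighted to the same mix of width and strength over 25 strata, 14.6% lay within 1 kb of a start site, so the difference became smaller and kept its direction. With −log10 p of at least 3 in all 4 lists the order turned: 19.45% of 5933 knockout-only regions and 16.9% of the 18715 others lay within 1 kb. Every autosome and the X chromosome had a share between 20.6% and 26.2%; the Y chromosome had 4 consensus regions, none of them knockout-only.

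**Figure D2:**
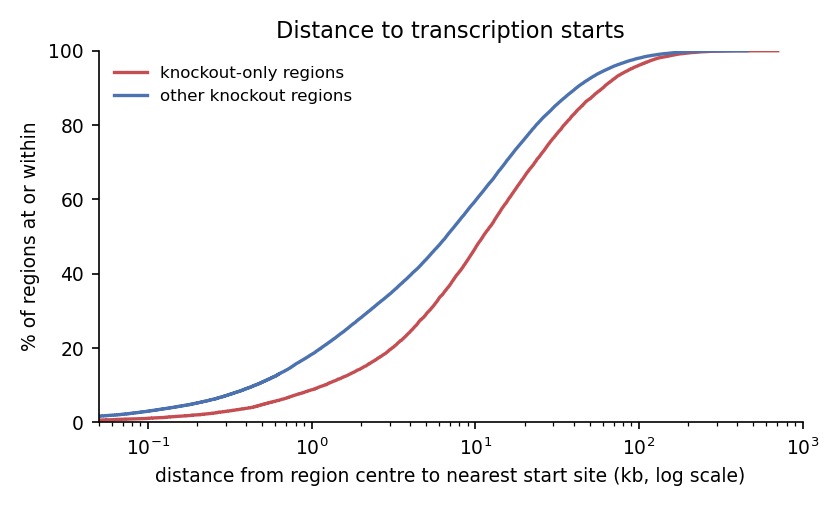
Cumulative percent of regions (vertical axis) whose centre lies within a given distance of the nearest annotated start site (horizontal axis, kb, log scale), for knockout-only and other KO regions. The knockout-only curve runs below the other one, with medians of 11148 bp and 6650 bp.

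H3K27ac was sparse. KO H3K27ac peaks covered 17.0% of knockout-only regions in replicate 1 and 4.08% in replicate 2, while the WT libraries covered 7.47% and 7.71%. The KO values lay on either side of the WT values, and replicate 1 had 88400 peaks against 31524 in replicate 2. At the other KO regions the KO libraries covered 55.1% and 23.8% and the WT libraries 60.3% and 54.8%. A consensus peak of the 2 KO libraries was present at 118 knockout-only regions (0.7998%, 0.662 to 0.957), against 15.8% of the other KO regions, and 3.86% of them after reweighting for width and strength. In 110 of the 118 both libraries had a peak within the region itself. A WT consensus peak was present at more of them, 252 (1.71%), and at 45.4% of the others. At wild-type-only regions the shares were 0.263% for KO and 11.2% for WT H3K27ac. KO H3K27ac was at 8.92% of the 5933 regions called knockout-only from lists limited to −log10 p of at least 3, and at 33.2% of the others there. Per megabase, knockout-only regions held 62.9 peaks of KO replicate 1, against 32.4 over the genome, and 14.2 of KO replicate 2, against 11.6. The WT libraries had 27.6 and 27.7 per megabase there, against 26.6 and 26.7 over the genome. Replicate 1 of the KO is therefore the H3K27ac library whose peaks were denser in these regions than in the genome by the widest margin.

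The H3K27ac lists differed between the genotypes at these regions in both directions. Of the 118 knockout-only regions with a KO H3K27ac consensus peak, 79 (66.9%, 57.7 to 75.3) held one with no peak in either WT H3K27ac library, against 8.36% of the other KO regions with KO H3K27ac. Over all KO H3K27ac consensus peaks, 10.9% had no WT peak. Of the 252 with a WT consensus peak, 120 (47.6%, 41.3 to 53.98) held one with no peak in either KO library, against 32.7% of the other KO regions with WT H3K27ac and 34.0% of all WT consensus peaks. H3K27ac was not used to choose the regions, and the libraries are separate from those of H3K4me1. The number of regions with KO H3K27ac went up with H3K4me1 strength, from 4 in the weakest of 5 equal groups through 7, 10 and 17 to 80 in the strongest; with WT H3K27ac it was 15 in the weakest, then 36, 34 and 57, and 110 in the strongest.

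Several of the strongest of these 79 lay in introns or outside genes. A region in an intron of Dnajc5b (chr3:19554446-19565935) had H3K27ac folds of 5.37 and 4.18 in the KO and none in the WT, and H3K4me1 −log10 p of 7.65 and 10.2. Near Nt5e, the gene of the ectonucleotidase CD73, a region 72310 bp from its start (chr9:88253426-88256349) had KO H3K27ac folds of 6.08 and 8.62. Near Fam49a (chr12:12219704-12224621) the folds were 5.73 and 4.79, and all 3 macrophage IRF8 libraries had a peak there, with folds of 9.94, 9.36 and 4.56, while no adult microglia library did. A region 35493 bp from a start of Tnfsf4, the gene of OX40 ligand (chr1:161358204-161361628), had 6.08 and 4.63. In each of these regions H3K27ac was listed in both KO libraries and in neither WT library.

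PU.1 was rarer still. KO PU.1 peaks were found at 0.793% and 1.23% of knockout-only regions in the 2 libraries, and WT PU.1 peaks at 0.759% and 0.352%. By replicate number, which also sets the control and threshold of these calls, 117 KO and 112 WT regions were found in replicate 1 and 181 and 52 in replicate 2, so the gap rests on replicate 2. With 2 libraries against 2 an exact permutation test cannot reach the 0.05 threshold, and none was run. At the other KO regions the shares were 13.7% and 14.03% in KO and 17.1% and 12.9% in WT. Consensus PU.1 peaks of the KO lay in 30 knockout-only regions (0.203%), against 8.09% of the others and 1.74% of the others after reweighting. From lists limited to −log10 p of at least 3 the shares were 3.27% and 17.7%. Wild-type-only regions held KO PU.1 at 0.155% and WT PU.1 at 0.558%. In 22 of the 30 (73.3%, 54.1 to 87.7) the PU.1 peak had no counterpart in either WT library, against 17.9% of other KO regions with KO PU.1 and 16.5% of all KO PU.1 consensus peaks. In the reverse direction it was 1 of 18 knockout-only regions with WT PU.1, against 25.1% of all WT PU.1 consensus peaks. Of the 30, 15 (50%) held macrophage IRF8 and 9 (30%) adult microglia IRF8, against 64.2% and 83.0% of the other KO regions with KO PU.1.

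Only 8 knockout-only regions held both H3K27ac and PU.1 in consensus in the KO. The F13a1 region (chr13:37032266-37036707) lay 14701 bp from the nearest start site of a protein-coding gene. It had H3K27ac folds of 5.37 and 5.75 and PU.1 folds of 5.86 and 3.36 in the KO. None of the 4 WT libraries for these targets had a peak there. A region near Atxn7l3b (chr10:112990413-112994393) had H3K27ac folds of 8.23 and 4.31 and PU.1 folds of 6.22 and 6.89, again with no WT peak and no IRF8 in any library. The Invs region (chr4:48417566-48421853), whose PU.1 sequence is printed here, had H3K27ac in both genotypes, with folds of 9.06 and 4.38 in KO and 3.30 and 4.49 in WT, and PU.1 only in the KO lists, with 5.03 and 6.12.

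Consensus peaks of KO H3K27ac, KO PU.1 and adult IRF8 overlapped the same region in 3 cases. They lay near Lgals8, which encodes galectin-8, near Foxo3, a forkhead transcription factor, and in Ppp2r3d, which encodes a subunit of protein phosphatase 2A. At Ppp2r3d (chr9:124423758-124426762) adult IRF8 folds were 12.4, 7.58 and 7.34 and macrophage folds 6.87, 4.83 and 3.14. WT libraries had H3K27ac there with folds of 6.78 and 7.20 and PU.1 with 5.34 and 3.15, so the WT lists held every target except H3K4me1 in this region, and 19 of the 25 libraries listed it. Near Foxo3 (chr10:42277886-42283326) the gap to a WT H3K4me1 region was 19 bp, WT H3K27ac folds were 5.27 and 5.59, and KO PU.1 had a peak within the region in replicate 2 (5.74) but not in replicate 1. The Lgals8 region (chr13:12467275-12470641) also had WT H3K27ac, with folds of 10.6 and 5.13. All 3 thus carried WT H3K27ac in both libraries.

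IRF8 peaks were scarce. Adult microglia libraries had a peak at 0.502%, 1.64% and 2.35% of knockout-only regions (1.498% ± 0.933, SD, n = 3), and at 23.1%, 34.2% and 20.6% of the other KO regions. Macrophage libraries had a peak at 3.15%, 2.26% and 1.56% (2.32% ± 0.798, SD, n = 3), and at 25.3%, 20.6% and 8.81% of the others. At P14 the knockout-only shares were 0.244%, 0.942% and 0.454%, and at P9 they ran from 0.0136% to 0.0474% in 4 libraries with far fewer peaks. IRF8 was therefore lower at knockout-only regions than at the other KO regions in all 13 IRF8 libraries. In consensus, adult IRF8 lay at 85 regions (0.576%) against 23.9% of the others and 8.81% after reweighting. For macrophage IRF8 the number was 222 (1.505%), against 16.8% and 6.01%. From H3K4me1 lists limited to −log10 p of at least 3, adult IRF8 was at 10.45% of knockout-only and 44.03% of other regions, and macrophage IRF8 at 12.02% and 29.8%. At wild-type-only regions adult IRF8 was at 5.35% and macrophage IRF8 at 2.73%. Per megabase, adult IRF8 consensus peaks were at 1.96 in knockout-only regions against 6.21 over the genome, and macrophage peaks at 5.24 against 4.43. The adult libraries differed in this: 1.71 against 6.25 in replicate 1, 5.63 against 10.9 in replicate 2 and 8.01 against 8.23 in replicate 3. The macrophage libraries had 11.2 against 8.50, 7.94 against 6.23 and 5.38 against 3.59.

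At knockout-only regions the difference between adult microglia and macrophages was within the spread between libraries. Adult minus macrophage, it was −0.825 percentage points (two-sided exact permutation test, p = 0.5, n = 3 against 3, smallest possible p 0.1). The ranges overlapped. The 2 groups were called against different IgG controls, which cannot be told apart from the cell type. Within batch 1 the difference was −1.63 points (2 libraries each) and within batch 2 it was 0.793 (1 each), so the sign turned between the labelled batches. With labels exchanged only within batches the exact permutation p was 0.5 (smallest possible 0.167). On the log2 ratio of the share at knockout-only regions to that at the other KO regions, adult libraries had −5.52, −4.38 and −3.13 and macrophage libraries −3.01, −3.19 and −2.50. That difference was −1.45 (exact permutation p = 0.2), −1.86 in batch 1 and −0.63 in batch 2. In consensus, 194 knockout-only regions held macrophage but not adult IRF8, 57 adult but not macrophage IRF8, and 28 both. The same counts at the other KO regions were 2426, 5806 and 5510. The macrophage share of 1.505% rests on the 2 libraries of batch 1: with a peak required in both remaining libraries it was 0.359% without replicate 1, 0.339% without replicate 2 and 1.42% without replicate 3. The adult share by the same steps was 0.373%, 0.183% and 0.3999%.

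The 85 knockout-only regions with adult IRF8 lay closer to start sites than the class as a whole: 32 (37.6%) had their centre within 1 kb of one, against 8.76% of all knockout-only regions and 23.99% of other KO regions with adult IRF8. One in an intron of Iqgap1, a cytoskeletal scaffold (chr7:80779014-80791793), had folds of 5.19 and 10.3 in adult replicates 1 and 2 and 7.06, 4.75 and 4.07 in the macrophage libraries, with no H3K27ac or PU.1 in any library. Another in an intron of Wdr19, a gene of ciliary transport (chr5:65246735-65248839), had adult folds of 6.23, 9.04 and 7.04. None of KO H3K27ac, KO PU.1, adult IRF8 or macrophage IRF8 was found in consensus at 14364 knockout-only regions, 97.4%, against 65.1% of the other KO regions.

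**Figure D3:**
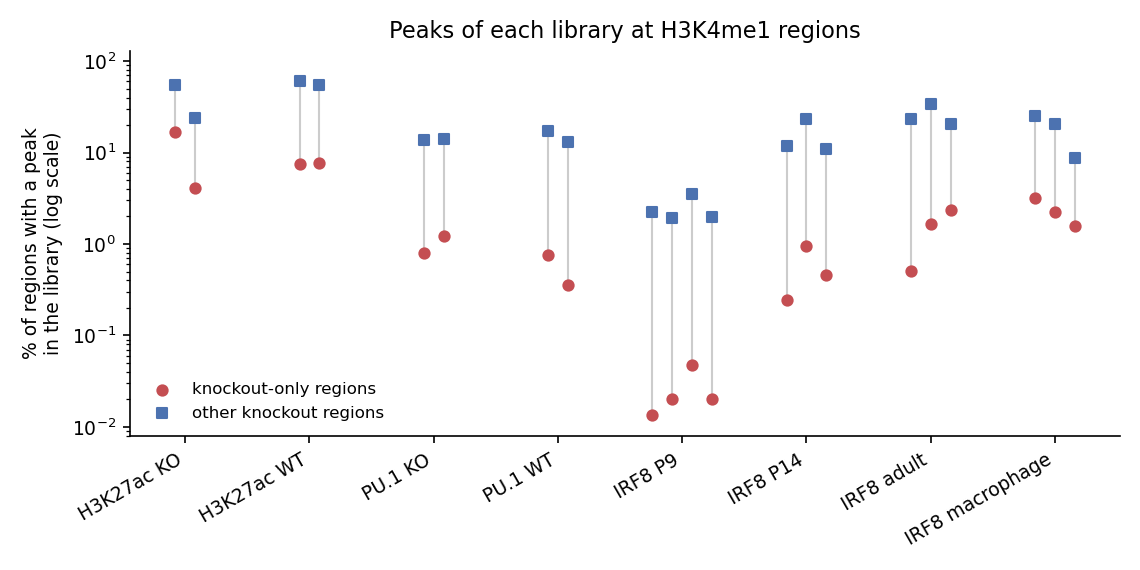
Percent of knockout-only (circles) and other KO H3K4me1 regions (squares) that hold a peak of each library (vertical axis, log scale); each pair of points is 1 library. In every library the knockout-only share lies below the other share, and the 2 KO H3K27ac libraries, at 17.0% and 4.08%, lie on either side of the WT libraries at 7.47% and 7.71%.

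The sequence under knockout-only regions resembled that under the others. In the central 1 kb the mean GC content was 45.2% ± 5.58 (SD over regions), against 45.6% ± 6.54, and the repeat-masked share was 20.4% against 20.3%. CpG dinucleotides numbered 10.7 ± 8.19 against 14.4 ± 15.6. The motifs were searched on both strands in the same window. GAGGAAGT, a PU.1 motif, was in 7.29% (6.87 to 7.72) of knockout-only regions against 9.72% of the others and 9.51% after reweighting. The composite ETS-IRF motif, GGAA and GAAA with any 2 bases between, was in 9.61% (9.14 to 10.1) against 10.7%, and 11.0% after reweighting. The interferon response motif, GAAA and GAAA with any 2 bases between, can overlap the composite one and was in 13.4% against 14.5%. AP-1 (TGANTCA) was in 28.9% against 27.4%, C/EBP (TTGCNNAA) in 36.4% against 36.7%, RUNX (TGTGGT) in 56.7% against 55.04% (54.05% after reweighting), and MEF2 (CTA and TAG with any 4 bases between) in 16.4% against 16.7%. Among the 85 regions with adult IRF8 the composite motif was in 17 (20%), against 12.8% of the other KO regions with adult IRF8.

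By gene, 7373 of 21938 protein-coding genes had a knockout-only region in the gene or within 10 kb, the rule also used for the gene lists. Those with most included Dlg2 with 23 of 44 KO consensus regions, Dpp6 with 21 of 36, Camta1 with 19 of 45, Rbfox3 with 19 of 39, Auts2 with 18 of 29, Ptprn2 with 18 of 35, Tenm4 with 16 of 24 and Cacna1c with 15 of 33. Dlg2 encodes a postsynaptic scaffold, Dpp6 an auxiliary subunit of neuronal potassium channels, Rbfox3 the neuronal nuclear protein NeuN, and Cacna1c an L-type calcium channel. Gm20388 with 55 of 222 and Fgfr2 with 38 of 114 ranked above them, but these annotated models overlap 73 and 30 other protein-coding genes. Per 100 kb, among 388 genes with at least 5 knockout-only regions, the densest were Atl3 (6 of 8), Umodl1 (6 of 8), Wnt3 (5 of 7), Rmi2 (6 of 10), Ttbk1 (5 of 8), Cpe (8 of 9), Plch2 (6 of 8), Col4a1 (8 of 11), Epb41l1 (8 of 11) and Nfasc (11 of 16). Wnt3 encodes a Wnt ligand, Cpe the prohormone-processing carboxypeptidase E, Col4a1 a basement membrane collagen and Nfasc the adhesion protein neurofascin. Of these 10, only Atl3 had a WT H3K27ac consensus peak at its start site, against 34.8% of 21936 protein-coding genes. The 10 genes with most knockout-only regions did not share this: Gm20388, Fgfr2, Dlg2 and Camta1 had such a peak.

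Over all genes, each region was assigned to the protein-coding gene that holds its centre. In genes with WT H3K27ac at a start site, 2741 of 19618 KO consensus regions were knockout-only (13.97%, 13.5 to 14.5), and in genes without it 6027 of 20810 (29.0%, 28.4 to 29.6). The share went up with gene length in both classes, from 4.47% in genes under 10 kb to 20% in genes over 500 kb with the promoter mark, and from 16.3% to 39.7% without it. Wild-type-only regions followed the same order in WT consensus regions: 5.75% in genes with WT H3K27ac at the start and 11.7% in genes without, and 26.3% in unmarked genes over 500 kb. Outside protein-coding genes 27.6% were knockout-only. Gm20388 and Gm37240, read-through models, were left out of these classes after the values were seen.

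**Figure D4:**
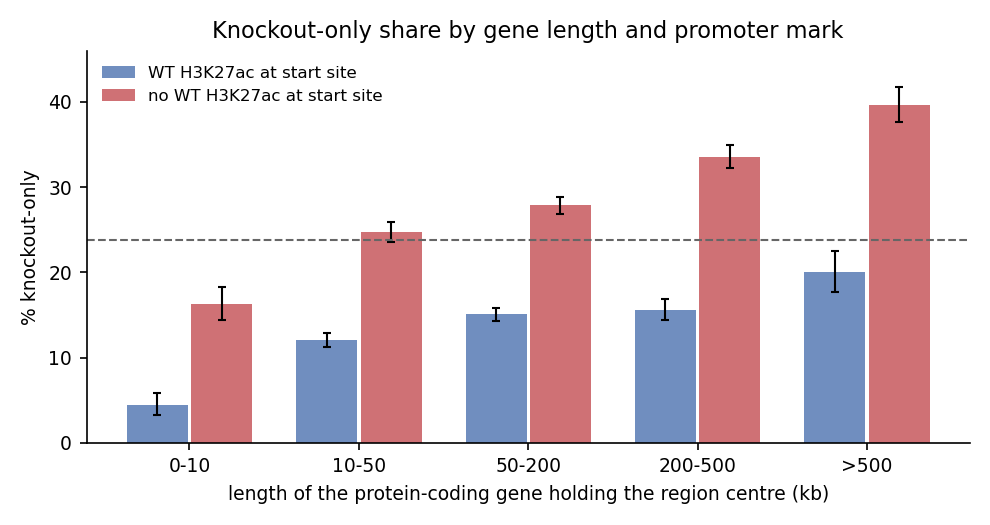
Percent of KO consensus regions that are knockout-only (vertical axis) by length of the protein-coding gene that holds the region centre (horizontal axis, kb), for genes with and without a WT H3K27ac consensus peak at a start site. Bars are shares and lines 95% exact binomial intervals, which cover counting error only; the dashed line is the share over all regions, 23.8%. Shares run from 4.47% to 20% with the promoter mark and from 16.3% to 39.7% without it.

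Knockout-only regions also occurred in runs with no other KO consensus region in between. The longest run had 15 regions over 721 kb around Ptpru, which encodes a receptor tyrosine phosphatase (chr4:131079851-131800952). Next came 12 over 353 kb in Opcml and Ntm, adjacent genes for neural cell adhesion molecules, and 11 over 702 kb that included Pax7 and Igsf21. Most regions stood alone or in pairs, with 6879 single regions and 1978 pairs.

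Among 18 lists of genes, those of neurons had the highest knockout-only share. At 12 neuronal genes 81 of 166 KO consensus regions were knockout-only (48.8%, 40.97 to 56.7), against 23.8% of all. The 4 genes with most were Dlg2, Rbfox3, Nrxn3 with 11 of 19 and Grin2a, an NMDA receptor subunit, with 9 of 14. Of the 12 genes, 8 had a knockout-only region, while Snap25, Slc17a7, Gad1 and Gad2 had none. None of the 81 held KO H3K27ac, KO PU.1 or adult IRF8 in consensus; at the shares of the whole class, each below 1%, a count of 0 does not set them apart. Wild-type-only regions were frequent at the same genes, 24 of 85 WT consensus regions (28.2%), against 13.0% of all. The neuronal genes are long, with a median of 345 kb, and 1 of 12, Dlg2, had WT H3K27ac at a start site, against 34.8% of all protein-coding genes.

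H3K27ac peaks at the neuronal genes were also counted in each library. The WT libraries had 11 and 26 H3K27ac peaks there, or 0.152 and 0.357 per 1000 peaks of the library, and the KO libraries had 129 and 34, or 1.46 and 1.08. The KO values per 1000 did not overlap those of the WT, with 2 libraries each and no test, so chance was not excluded. Of the 18 lists, both KO libraries were above both WT libraries in 2, neurons and border macrophages, and below them in 6, with overlap in 10. Among those below were astrocyte genes, with 0.636 and 0.590 in WT and 0.385 and 0.476 in KO, and endothelial genes, with 0.636 and 0.618 in WT and 0.272 and 0.222 in KO. At the neuronal genes peaks were found at 6 and 9 of the 12 genes in WT and at 11 and 9 in KO. Tubb3 was at 0 in both WT libraries and KO replicate 1, Gad1 in both WT libraries and KO replicate 2. For H3K4me1 the regions per 1000 were 2.58 and 2.60 in WT and 3.94 and 2.61 in KO, so only KO replicate 1 stood apart. The share of neuronal DNA in the sorted samples was not measured, and its part in the knockout-only regions was not tested.

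Genes of microglia themselves had few knockout-only regions. At 18 homeostatic microglia genes 2 of 56 KO consensus regions were knockout-only (3.57%), 1 each at Cx3cr1, the fractalkine receptor, and Siglech. The first lies in an exon where the long Cx3cr1 model overlaps Ttc21a, 661 bp from the start of Ttc21a (chr9:119961077-119963481). This share was 14.3% without WT replicate 2 and 7.14% without WT replicate 1, 18.5% in KO replicate 2 alone and 14.5% in KO replicate 1 alone. With −log10 p of at least 3 in all 4 lists it was 21.7%, against 24.1% of all regions. At 20 disease-associated microglia genes the count was 2 of 53 (3.77%), both at Ctsb, the protease cathepsin B. IRF family genes had 2 of 39 (5.13%). Interferon-stimulated genes had 4 of 47 (8.51%), among them 2 of 2 regions at Oas3. The TGF-beta pathway had 5 of 58 (8.62%), with Tgfb2 at 3 of 5. Inflammatory cytokines and chemokines had 5 of 42 (11.9%), MHC class II genes 3 of 22 (13.6%) and myeloid transcription factors 14 of 123 (11.4%), with Runx1 at 4 of 17 and Runx2 at 4 of 19. All of these shares were below 23.8%, but the intervals of MHC class II genes (2.91 to 34.9) and of cytokines and chemokines (3.98 to 25.6) include that value. In the homeostatic list 14 of 18 genes had a WT H3K27ac consensus peak at a start site, against 34.8% of all, and 7 had a KO one. All 18 had H3K4me1 in each of the 4 libraries and H3K27ac in both WT libraries in the gene or within 10 kb. In the KO, H3K27ac was listed there at 17 and 16 of them; Sall1, a transcription factor of microglia, was at 0 in both KO libraries.

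Genes of other macrophages and blood cells were mixed. Border macrophage genes had 14 of 44 (31.8%, 18.6 to 47.6), at 8 of 12 genes. F13a1 led with 5 of 8, followed by Ms4a7, a membrane protein of border macrophages, with 2 of 4 and Siglec1, the gene of sialoadhesin, with 2 of 4. Of the 14 regions 3 held KO H3K27ac, against 0.7998% of the class. One of them, counted at Pf4, lies outside genes and 812 bp from the start of Cxcl3 (chr5:90782945-90787637). Another lies in Ms4a7, 1305 bp from an annotated transcript start (chr19:11319849-11326798), with H3K27ac folds of 7.51 and 7.67 in the KO and none in the WT, and macrophage IRF8 in replicates 1 and 2. At the border macrophage genes the libraries had 35 and 45 H3K27ac peaks in WT and 74 and 37 in KO, or 0.484, 0.618, 0.837 and 1.17 per 1000. Their H3K4me1 regions per 1000 were 0.382 and 0.362 in WT and 0.520 and 0.370 in KO. A different number of border macrophages in the KO sort was not tested.

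Lymphocyte genes had 14 of 41 (34.1%, 20.1 to 50.6), with 4 of 8 at Ebf1, a B cell transcription factor. Neutrophil genes had 7 of 25 (28.0%), of which Ly6g gave 3 of 3, and monocyte genes had 4 of 19 (21.1%). Peritoneal macrophage genes had 6 of 35 (17.1%). Oligodendrocyte lineage genes had 9 of 28 (32.1%), at 3 of 9 genes. These were Cspg4, the NG2 proteoglycan, at 4 of 5, Mbp at 3 of 15 and Sox10 at 2 of 2. Some of the regions counted at Cspg4 had their centre in an intron of Odf3l1. Astrocyte genes had 8 of 30 (26.7%), at 3 of 8 genes. These were the glutamate transporter gene Slc1a2 at 5 of 7, Aldh1l1 at 2 of 8 and Slc1a3 at 1 of 8. Endothelial genes had 4 of 37 (10.8%, 3.02 to 25.4) and developmental factors of other lineages 2 of 28 (7.14%). The intervals of the lymphocyte, border macrophage, oligodendrocyte, neutrophil, astrocyte, monocyte, peritoneal macrophage and endothelial lists all include 23.8%.

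**Figure D5:**
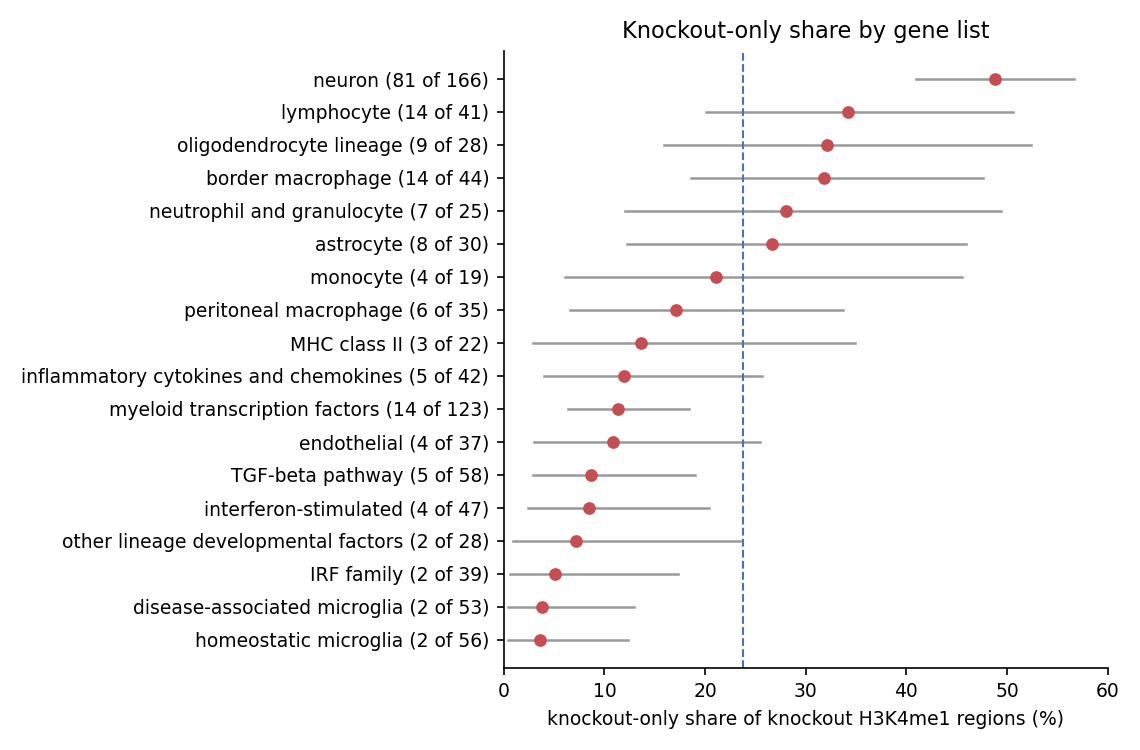
Knockout-only share of KO consensus H3K4me1 regions at the genes of each list (horizontal axis, percent); points are shares, lines 95% exact binomial intervals and the dashed line the 23.8% of all KO consensus regions. Neuron genes, at 48.8%, lie above the line with their interval, and homeostatic and disease-associated microglia genes, at 3.57% and 3.77%, below it.

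The 10 knockout-only regions with the highest mean percentile of −log10 p over the 2 KO lists had −log10 p between 7.50 and 13.6; the highest value of the class in a single list was 18.3. The top one, near Zfp395 (chr14:65350239-65352716), had H3K4me1 folds of 6.02 and 5.23 and a WT region 2063 bp away. It held H3K27ac in both WT libraries (4.93 and 7.85) and KO replicate 1 (6.08), and IRF8 in adult replicates 2 and 3 (5.38 and 5.86). Next, in Foxk1 (chr5:142455380-142461794), the folds were 5.83 and 5.26. Among the 10, 4 had an IRF8 or PU.1 peak in at least 1 adult or macrophage library, and the Invs region alone held a KO PU.1 peak.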

How the data were processed

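CUT&RUN region lists of 25 libraries from 29 samples were used; the 4 IgG samples enter only through the authors' calls. Groups follow the titles, also for peritoneal macrophages, whose source is labelled as microglia. The submitters' processing notes name bcl2fastq, Trim Galore, Bowtie2, deepTools, MACS2 and mm10. Per the file headers, the authors called each library separately with MACS (2.2.6 for histone marks, 2.2.7.1 for IRF8 and PU.1) against an IgG control, with duplicates kept and the larger data set scaled to the smaller. Broad calling with a minimum length of 1000 bp was used for H3K4me1, with p-value thresholds of 0.01 for strong and 0.1 for weak stretches. The other targets used a q-value of 0.01, except PU.1 replicate 2 in both genotypes, with 0.05 and another control. The deposited −log10 p-values and fold enrichments over control are the authors' and served to describe, rank and filter regions within a list.

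Lists were merged and compared by at least 1 bp of overlap in Python 3.11.15 with numpy 2.4.6, by interval code tested on 1218 simulated regions with 0 errors. A consensus peak is a merged peak found in at least 2 libraries of its group. Positions come from GENCODE vM21 and sequences from GRCm38.p6 (RefSeq copy), whose chromosome lengths hold all regions. Reweighting used 5 by 5 strata of width and strength. Intervals are 95% exact binomial and cover counting error only; read depth per region is not given by these lists. The one comparison tested, by exact permutation, is that of the IRF8 libraries. H3K4me1 fragments per library ran from 14119640 to 23884530, and over all 25 libraries from 7250496 to 24705885.

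The members, gene lists, motifs and alternatives were chosen with earlier results of these data known. Of 249 list entries 248 matched the annotation. Genes named are those with at least 3 knockout-only regions per list (at most 4), the 10 with most and the 10 densest, the strongest and widest regions, and those holding KO H3K27ac, KO PU.1 and adult IRF8; other genes were named after their values were seen, and some that the rule names are not reported here. Alternatives tried were other thresholds, equal list lengths, other overlap rules, autosomes only and leaving out each library.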

Additional observations from a re-analysis of the deposited data

How the results depend on the processing

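Across 158 recomputed values, 93 stayed within a band set for each result or kept their sign, 64 left the band, and 1 changed sign. The band was the SD between replicates for most shares and the width. It was a fixed fold range for the region count and the reweighted ratios, and the binomial interval for the gene lists. The IRF8 difference was judged by its sign alone. The SD for KO H3K27ac, 9.12 points, exceeded the share itself, 0.7998%. A move to 8.92% therefore counted as within the band, and no fall could leave it. Leaving out single libraries gave 20237 to 105988 knockout-only regions, or 32.6% to 56.0% of the consensus, because fewer lists then had to be met or avoided. The same steps gave KO H3K27ac at 0.227% to 17.0%, KO PU.1 at 0.0359% to 1.23%, adult IRF8 at 0.153% to 1.87% and macrophage IRF8 at 0.339% to 2.65% of knockout-only regions. They placed 6.50% to 11.1% within 1 kb of a start site and 32.9% to 48.8% outside genes, with median widths of 1392 to 2792 bp. With −log10 p of at least 3 in all 4 H3K4me1 lists there were 5933 regions, with 8.92% KO H3K27ac, 3.27% KO PU.1, 10.45% adult IRF8, 12.02% macrophage IRF8, 19.45% within 1 kb of a start site and a median width of 3864 bp; regions weak in the WT then count as absent there. Lists of equal length gave 8202 regions, 10.2% near a start site and 2794 bp. Absence from the WT consensus only gave 27553 regions (44.4%), with 2.08% adult IRF8, 2.835% macrophage IRF8, 11.2% near a start site and 2869 bp. Requiring 25% WT coverage moved the width to 2776 bp. A peak in any library gave 19.55% for KO H3K27ac, 1.81% for KO PU.1, 3.72% for adult IRF8 and 5.01% for macrophage IRF8. For macrophage IRF8, −log10 p of at least 10 gave 0.488% and a peak in all libraries 0.312%. The share at the other KO regions over that at knockout-only regions went on reweighting from 19.8 to 4.83 for KO H3K27ac, from 39.8 to 8.55 for KO PU.1 and from 41.6 to 15.3 for adult IRF8. Adult minus macrophage IRF8 was 0.793 points in batch 2 alone, a setting added after the values were seen; the cause was not tested. Except where stated, the cause of a move was not tested. Also added later, the neuron list had 37.2% to 81.9% and lay above the share of all regions in 10 of 10 settings, by 1.15 to 2.15 times. The homeostatic list had 3.57% to 21.7% and lay below all regions in 10 of 10, at 0.161 to 0.903 times their share. The border macrophage list had 22.7% to 56.8% and lay above them in 9 of 10, at 0.817 to 1.87 times. With the replicate number as a block, added later, the adult minus macrophage difference was −0.825 points (exact permutation of signs over 3 pairs, p = 0.75, smallest possible 0.25); the labels tie the numbers to batches and not to pairs. The knockout-only class itself comes from no test and has no blocked fit. The lists give no depth per region; WT libraries had 14538968 and 14119640 fragments, KO replicate 1 had 15840411 and KO replicate 2 had 23884530.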
